A study of Mus musculus with 9 samples.

Results

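The Tie receptors and the angiopoietins form a small signalling family of 4 mouse genes, Tek, Tie1, Angpt1 and Angpt2. These are 4 of the 18193 genes named on the array. They were read through every probe set whose platform annotation names exactly 1 of these symbols, 6 of 45101 in all, with 1 each for Tek and Tie1 and 2 each for Angpt1 and Angpt2. RNA came from marrow cells of the Lin-Sca1+cKit+ phenotype (LSK), a gate that contains hematopoietic stem cells along with multipotent progenitors, sorted from lethally irradiated (10 Gy) C57BL/6 mice 8 weeks after transplantation. There were 3 groups of 3 arrays. In mice that had received dnMPL-transduced cells, the GFP-positive and the GFP-negative LSK fractions were profiled separately, and control mice had received wild-type cells. A retroviral vector carried the transgene named dnMPL. Marrow of 2 to 5 mice was pooled for each array. All groups thus share the irradiated C57BL/6 host, the transplantation and the sort. The labels do not say whether the control cells had passed through a vector, so effects of transduction and of dnMPL cannot be told apart. Nor do they say whether GFP-positive and GFP-negative samples came from the same mice, so p-values measure only the spread between these arrays.

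Tek, also called Tie2, is a receptor tyrosine kinase of endothelial cells and of hematopoietic stem cells. Angpt1 is the secreted ligand that activates it, Angpt2 is a second ligand that can block or weakly activate it depending on the context, and Tie1 is a related receptor that pairs with Tek and modulates its signal. In mouse bone marrow, Angpt1 and Tek signalling is known for holding stem cells quiescent and attached to their niche.

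In both dnMPL fractions Angpt1 lay below control on every array and on both of its probe sets, at 0.430 to 0.507 times the control level over the 2 fractions together. Tek and Tie1 were also lower by point estimate, but their arrays scattered widely and their groups overlapped in part. Neither Angpt2 probe set had an unadjusted p under 0.05 in any comparison, and its groups overlapped with control. None of these differences passed limma with Benjamini-Hochberg adjustment over the 27022 probe sets tested, nor did any other probe set in any comparison (0% called). At an unadjusted limma p under 0.05, 1588 probe sets differed between GFP-positive cells and controls, 1434 between GFP-negative cells and controls, 733 between the 2 dnMPL fractions, and 1797 between both fractions together and controls.

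By that unadjusted threshold, 3 of the 6 member probe sets were lower in GFP-positive cells than in controls (Tie1 and both of Angpt1) and 0 higher, against 2.72% lower and 3.15% higher of all tested probe sets. Tie1 dropped out without control 1, without GFP-positive 3 or with the replicate number as a block. Tek took its place without GFP-positive 2, alone or together with control 3, and with arrays weighted by their scatter. In GFP-negative cells 3 were lower than in controls (Tek and both of Angpt1) and 0 higher, against 2.36% and 2.94%. Without control 2, 1 of them was left, Angpt1 1439066_at. Between GFP-positive and GFP-negative cells 0 were lower and 0 higher, against 1.49% and 1.22%. In both fractions together 4 were lower than in controls (Tek, Tie1 and both of Angpt1) and 0 higher, against 3.1% and 3.55%. Only the 2 Angpt1 probe sets were left without control 2, without GFP-negative 3, without GFP-positive 3 or with the replicate number as a block. Tek enters these counts with a mean of 3.78 over the 6 dnMPL arrays, under the level of 4.03 that a probe set had to exceed to be tested, so it was tested through its control level and its place in the counts supports nothing.

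Both receptor genes lie on chromosome 4, and a window at an annotated start of each is shown. Factors of the ETS family, whose core motif is GGAA, are known to act on the promoters of Tie genes. They are among the genes measured below. The windows were taken as 250 bases before to 50 bases after a RefSeq start in build GRCm38.p6. That of Tek lies at chr4:94739039-94739338 on the plus strand and that of Tie1 at chr4:118489800-118490099 on the minus strand. The Tek gene as a whole is annotated from base 94739086. Most of the Tek window therefore lies within the annotated gene, and the start behind it was not checked. Capitals mark GGAA on either strand, which reads TTCC where it lies on the opposite strand.
Tek: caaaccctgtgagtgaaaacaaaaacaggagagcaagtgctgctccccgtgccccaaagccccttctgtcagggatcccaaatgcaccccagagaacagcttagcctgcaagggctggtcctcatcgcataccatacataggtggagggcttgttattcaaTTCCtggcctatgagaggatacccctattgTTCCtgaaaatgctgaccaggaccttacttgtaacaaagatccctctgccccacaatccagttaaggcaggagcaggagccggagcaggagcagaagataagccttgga
Tie1: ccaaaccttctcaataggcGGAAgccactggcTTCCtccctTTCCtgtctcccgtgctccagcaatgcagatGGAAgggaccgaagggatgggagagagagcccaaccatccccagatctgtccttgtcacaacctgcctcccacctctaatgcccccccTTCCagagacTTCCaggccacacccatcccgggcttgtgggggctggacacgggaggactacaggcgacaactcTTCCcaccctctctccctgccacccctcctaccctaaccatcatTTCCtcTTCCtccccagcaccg
The Tie1 window holds 9 matches and the Tek window 2. Of 32851 RefSeq windows of this length, 96.0% hold at least 1 match, 1.59% hold 9 or more and 84.6% hold 2 or more. GATAAG, a motif of GATA factors searched on both strands, occurs 1 time in the Tek window without touching a GGAA match, 0 times in the Tie1 window, and in 7.44% of all windows. CANNTG, the motif of factors such as SCL, occurs 2 times in the Tek window and 1 time in the Tie1 window, and 72.3% of all windows hold it. A match describes letters and does not show that a factor binds there.

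The arrays of this series were not of equal quality. For Gapdh, the 3′ control probe set exceeded the 5′ one, a gap that grows as transcripts become shorter, by 3.22 on GFP-positive array 2 and 3.87 on control array 3, against 2.47 to 2.89 on the other 7. The weights that limma estimates from the scatter of whole arrays were also lowest there, 0.400 for GFP-positive 2 and 0.383 for control 3, while the rest had 0.927 to 2.03. For beta-actin the same gap was -1.13 on GFP-positive 2 and -0.71 on control 3, against -0.72 to -0.55 on the rest. Unlike the Gapdh gap, it was thus not wider on these arrays. Values without both arrays are given for the members, Erg and Lmo2 in some comparisons, and not for other list genes or marker sums. Levels are deposited log2 RMA values, differences are log2 fold changes from limma with a standard error (SE), and a probe set was tested when its mean over the 9 arrays exceeded 4.03, the 40th percentile. All 6 member probe sets were tested. In bulk samples, fewer cells of a type and less RNA per cell cannot be told apart.

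Among the ligands, the brighter Angpt1 probe set (1421441_at) stood at 7.68, 8.04 and 8.22 on GFP-positive arrays 1 to 3, at 7.82, 8.35 and 8.14 on GFP-negative arrays 1 to 3, and at 9.08, 9.46 and 8.52 on control arrays 1 to 3. All 6 dnMPL arrays were below all 3 controls, and control 3 was the lowest control. The second Angpt1 probe set (1439066_at) stood at 6.46, 6.69 and 7.25 on the GFP-positive arrays, at 6.59, 7.32 and 6.37 on the GFP-negative arrays, and at 8.11, 8.18 and 7.72 on the controls. Again no dnMPL array reached the lowest control. Of the 6 member probe sets these 2 had all dnMPL arrays below all controls and 0 had them above, whereas 1.85% of all tested probe sets had all dnMPL arrays below and 1.51% had them above.

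GFP-positive cells differed from controls by -1.04 ± 0.33 (SE) on the first Angpt1 probe set and by -1.20 ± 0.35 on the second (limma adjusted p = 0.748 and 0.712, unadjusted p = 0.0108 and 0.00714). GFP-negative cells differed from controls by -0.92 ± 0.33 and -1.24 ± 0.35 (limma adjusted p = 0.888 and 0.775, unadjusted p = 0.0204 and 0.00592). These comparisons share the control arrays and are not separate evidence. Between both fractions together and controls the differences were -0.98 ± 0.28 and -1.22 ± 0.30 (limma adjusted p = 0.59 and 0.478), with 95% confidence intervals from -1.62 to -0.34 and from -1.90 to -0.54 on the 2 probe sets. By their unadjusted p these probe sets ranked 318th and 157th of 27022. Without GFP-positive 2 and control 3 the differences were -1.25 and -1.33.

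Between the 2 dnMPL fractions, Angpt1 averaged 7.98 ± 0.28 in GFP-positive and 8.10 ± 0.26 in GFP-negative cells on the first probe set (SD, n = 3 each). On the second it averaged 6.80 ± 0.40 in GFP-positive and 6.76 ± 0.50 in GFP-negative cells. The differences were -0.13, with a 95% confidence interval from -0.87 to 0.61, and 0.041, with an interval from -0.75 to 0.83 (limma adjusted p = 1.00 for both). The intervals leave room for differences of either sign, so these data do not show that the fractions were alike.

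**Figure D1:**
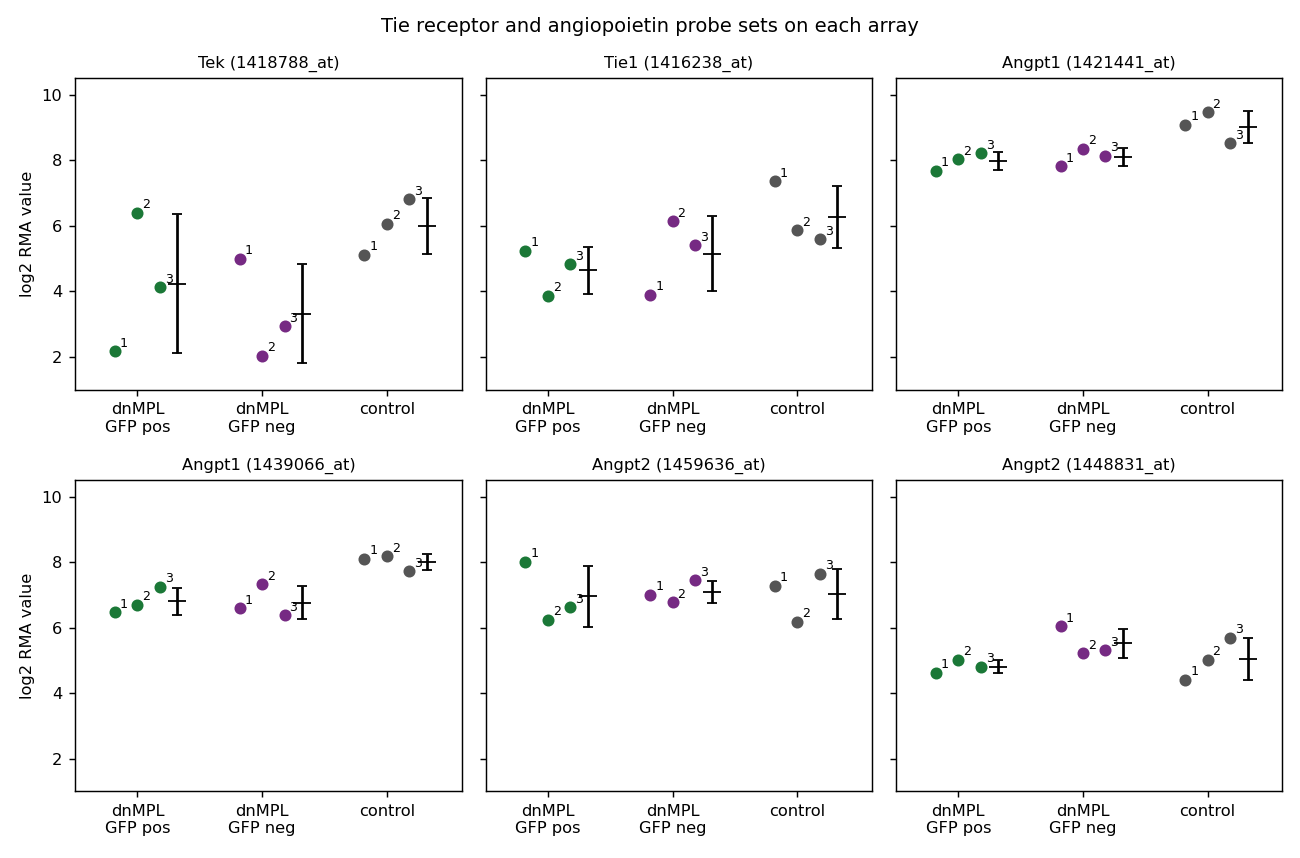
The 6 probe sets of the Tie receptors and angiopoietins, with the log2 RMA value on the vertical axis and the groups dnMPL GFP-positive, dnMPL GFP-negative and control on the horizontal axis. Points are arrays with their replicate number, bars are the group mean ± SD (n = 3), and both Angpt1 panels show all dnMPL arrays below the lowest control, at 8.52 and 7.72.

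The 2 Angpt1 probe sets moved together over arrays. Their Pearson correlation was 0.918 over the 9 arrays, and 0.714 for the deviations from the group means, which leave out the differences between groups. Both values describe the same 9 RNA samples and are not independent replicates. The residual spread of Angpt1 within groups was small, with an SD of 0.35 and 0.40 against a median of 0.53 over all tested probe sets.

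Angpt2, the context-dependent ligand, behaved differently. Its brighter probe set (1459636_at) stood at 8.00, 6.24 and 6.62 on the GFP-positive arrays, at 7.01, 6.78 and 7.45 on the GFP-negative arrays, and at 7.27, 6.17 and 7.65 on the controls, so that all 3 groups overlapped. The other probe set (1448831_at) stood at 4.62, 5.01 and 4.80 in GFP-positive cells, at 6.04, 5.22 and 5.31 in GFP-negative cells, and at 4.40, 5.01 and 5.68 in controls. On it all GFP-positive arrays lay below all GFP-negative arrays. This held for 1 of the 6 member probe sets, with 0 the other way round, against 2.78% and 3.69% of all tested probe sets.

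On the brighter Angpt2 probe set both fractions together differed from controls by -0.016 ± 0.46, with a 95% confidence interval from -1.04 to 1.01 (limma adjusted p = 0.997). On the other the difference was 0.14 ± 0.33, with an interval from -0.61 to 0.88 (limma adjusted p = 0.978). GFP-positive and GFP-negative cells differed by -0.12 ± 0.53 and -0.71 ± 0.38 on the 2 probe sets (limma adjusted p = 1.00 for both, unadjusted p = 0.822 and 0.0951). The 2 Angpt2 probe sets did not follow each other, with a Pearson correlation of 0.0141 over the 9 arrays and -0.0445 for the deviations from the group means, so they give no common estimate for the gene.

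Of the receptors, Tek (1418788_at) stood at 2.17, 6.41 and 4.13 on GFP-positive arrays 1 to 3, at 4.99, 2.03 and 2.94 on GFP-negative arrays 1 to 3, and at 5.11, 6.06 and 6.81 on control arrays 1 to 3. All GFP-negative arrays were below all controls, although GFP-negative 1 lay just under control 1. Of the 6 member probe sets, 3 had all GFP-negative arrays below all controls and 0 above, against 5.71% and 5.13% of all tested probe sets. Tek was among the 3, beside both Angpt1 probe sets. It was tested through its control level, so its place in this count supports nothing either. Among GFP-positive arrays, 1 and 3 were below every control and array 2 was above 2 of the 3 controls. The 2 arrays with the widest Gapdh gap were also the 2 with the most Tek signal, control 3 and then GFP-positive 2, and the part of RNA quality in this was not tested.

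GFP-positive cells differed from controls in Tek by -1.76 ± 1.06 (limma adjusted p = 0.899) and GFP-negative cells by -2.68 ± 1.06 (limma adjusted p = 0.913). For both fractions together the difference was -2.22 ± 0.92, with a 95% confidence interval from -4.29 to -0.15 (limma adjusted p = 0.73, unadjusted p = 0.0381). Its level was under 4.03 on 3 of the 6 dnMPL arrays, GFP-positive 1 and GFP-negative 2 and 3. The residual SD of Tek was 1.58, and 98.8% of tested probe sets had a smaller one. Without GFP-positive 2 and control 3, GFP-positive cells differed from controls by -2.44 and GFP-negative cells by -2.27. The difference between GFP-positive and GFP-negative cells was 0.92 ± 1.06 (limma adjusted p = 1.00), and without GFP-positive 2 it was -0.17.

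Tie1 (1416238_at), the partner receptor, stood at 5.24, 3.86 and 4.83 on the GFP-positive arrays, at 3.90, 6.14 and 5.41 on the GFP-negative arrays, and at 7.37, 5.87 and 5.59 on the controls. All GFP-positive arrays were below all controls, whereas GFP-negative 2 lay above 2 of the controls. Of the 6 member probe sets, 3 had all GFP-positive arrays below all controls and 0 above, against 4% and 4.39% of all tested probe sets. GFP-positive cells differed from controls by -1.63 ± 0.67 (limma adjusted p = 0.828) and GFP-negative cells by -1.13 ± 0.67 (limma adjusted p = 0.93). The GFP-negative difference was -0.50 without GFP-negative 1 and -0.58 without control 1.

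For both fractions together Tie1 differed from controls by -1.38 ± 0.58, with a 95% confidence interval from -2.68 to -0.08 (limma adjusted p = 0.73, unadjusted p = 0.0395). Without control 1, the highest control, this difference was -0.83, and without GFP-positive 2 and control 3 it was -1.53. GFP-positive and GFP-negative cells differed by -0.51 ± 0.67 (limma adjusted p = 1.00), and by -1.13 to -0.0099 with single arrays left out. Its residual SD was 0.95, and 86.5% of tested probe sets had a smaller one.

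**Figure D2:**
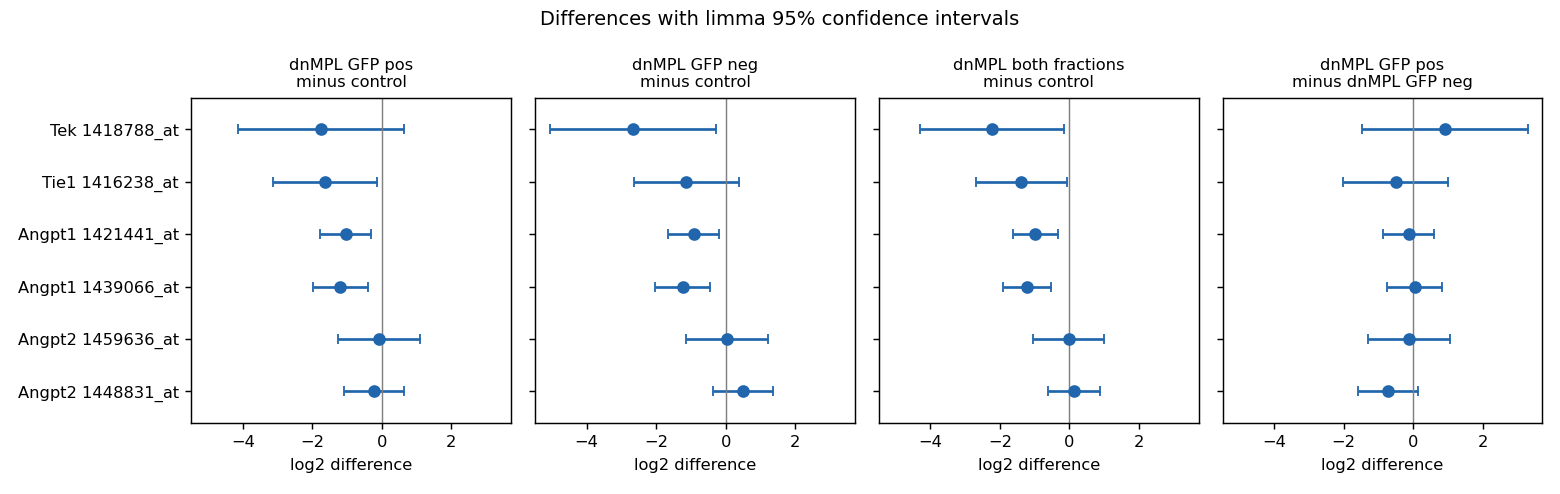
Log2 differences of the 6 probe sets in the 4 comparisons (points) with limma 95% confidence intervals (bars), 3 arrays a group. Both Angpt1 probe sets have intervals below 0 in the 3 comparisons with control, Tek has the widest intervals, and all 6 intervals between the dnMPL fractions include 0.

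**Figure D3:**
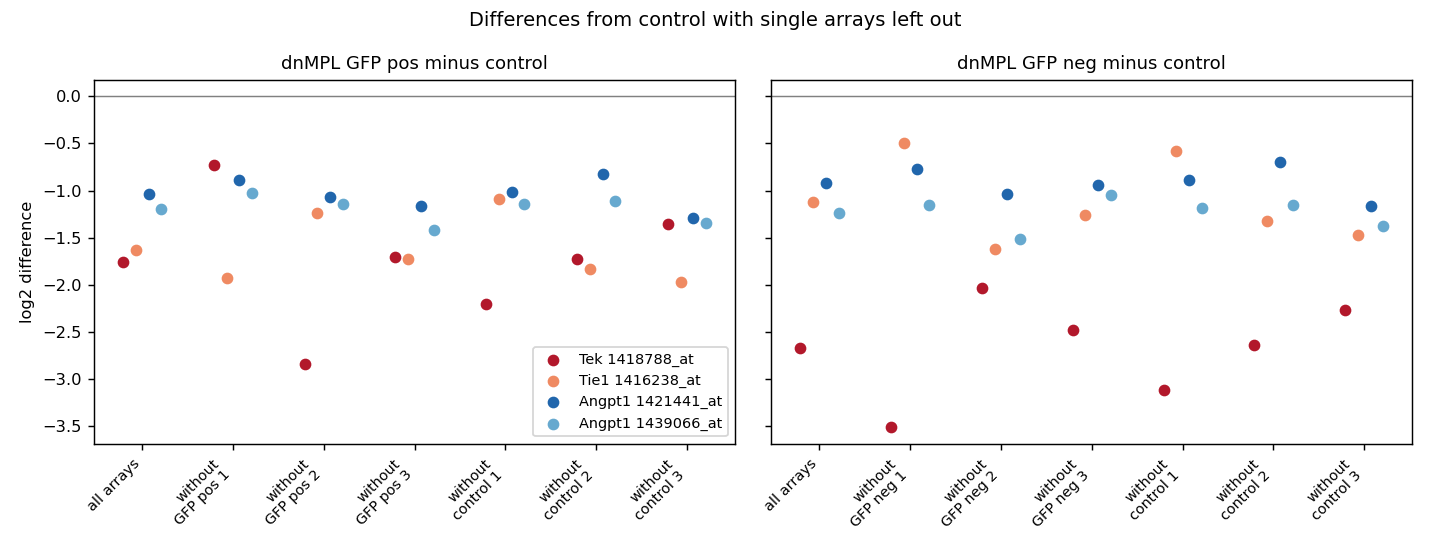
Log2 differences from control for Tek, Tie1 and the 2 Angpt1 probe sets with all arrays and with each array left out in turn. All points stay below 0, and Tek in GFP-positive cells ranges from -2.85 without GFP-positive 2 to -0.73 without GFP-positive 1.

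The 2 receptors did not move together within groups. Over the 9 arrays the Pearson correlation of Tek and Tie1 was -0.161, and for the deviations from the group means it was -0.881. In every group the array with the most Tek had the least Tie1, namely GFP-positive 2, GFP-negative 1 and control 3. Over the 15 pairs of member probe sets, correlations of these deviations ran from -0.901 (Tie1 with Angpt2 1448831_at) to 0.732 (Tek with Angpt2 1448831_at). All are descriptions of 9 arrays that share amplification and normalization, and the pairs named were singled out after their values were seen.

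**Figure D4:**
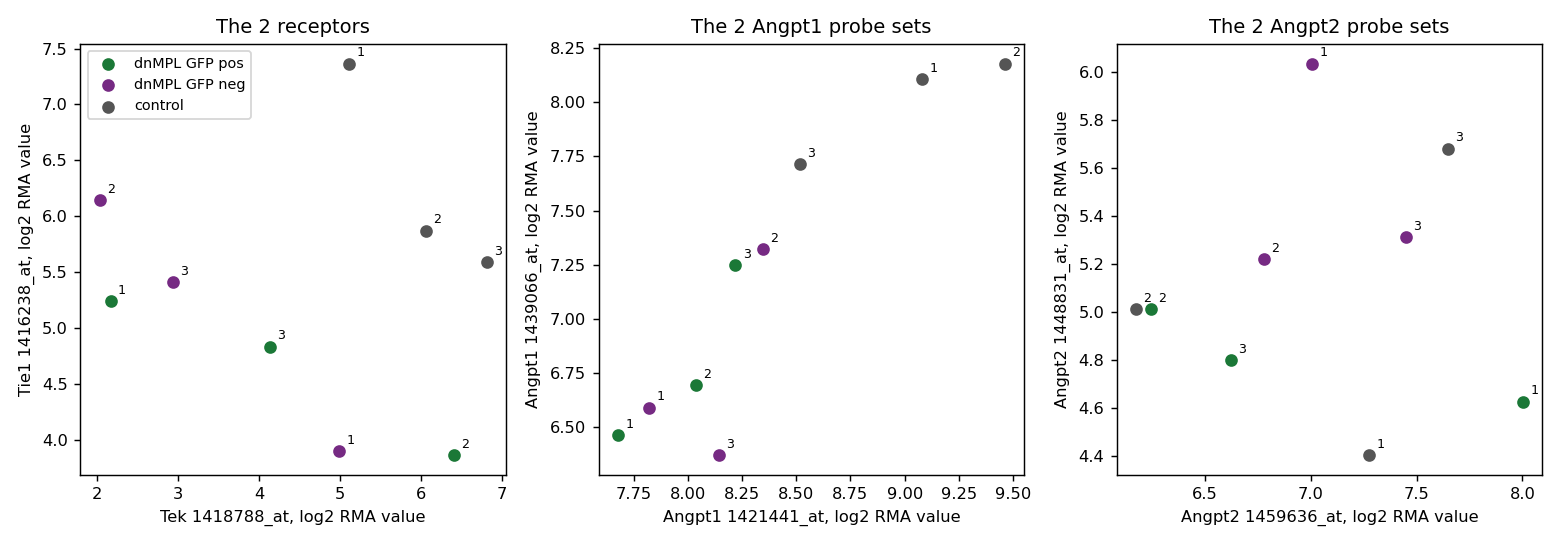
Log2 RMA values of pairs of member probe sets on each of the 9 arrays, labelled by replicate number and coloured by group. Tek and Tie1 run in opposite directions within each group, the 2 Angpt1 probe sets rise together (Pearson correlation 0.918), and the 2 Angpt2 probe sets do not (0.0141).

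The genes whose pattern over the 9 arrays was most like each member were looked up among 12397 other genes, each represented by its brightest probe set. For Angpt1 they were Pomc (Pearson correlation 0.970), Cbx8 (0.954), Scai (0.945), H2-Q5 (0.942) and Cep170b (0.941). For Tek they were Dusp10 (0.976), Zfp638 (0.931), Mras (0.916), Nlgn2 (0.904) and Gse1 (0.901). For Tie1 they were Nup107 (0.960), Coprs (0.938), Zfp2 (0.938), Rsf1 (0.933) and Nkap (0.911), and for the brighter Angpt2 probe set Lrsam1 (0.937), Grn (0.913), Plekhm3 (0.910), Chst3 (0.906) and Pdia2 (0.905). No gene appeared in more than 1 of these 4 lists. Each list holds only the highest of 12397 correlations over 9 arrays. They were not tested, and values picked this way do not show that the genes are controlled together.

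Other genes of the pathway were compared as 4 lists, and 0 of their members passed limma at an adjusted p under 0.05 in any of the 4 comparisons. Of 10 further ligands of Tie receptors and relatives of the angiopoietins, 8 were measured and 6 tested. All 6 were lower by point estimate in both dnMPL fractions together than in controls, with a median log2 difference of -0.14 against -0.033 over 12398 genes, and 0 of them had an unadjusted p under 0.05. Angpt4, the third angiopoietin of the mouse, averaged 4.00 ± 0.45 in GFP-positive cells, 3.99 ± 0.21 in GFP-negative cells and 4.18 ± 0.34 in controls. Both dnMPL means were under the filter level. Angpt4 was thus tested through its control level, and its place among the 6 supports nothing. Svep1, a ligand of Tie1, was below the filter at 3.18 ± 0.59 in GFP-positive cells, 2.94 ± 0.25 in GFP-negative cells and 3.28 ± 0.25 in controls.

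Of 8 receptor partners, phosphatases and shedding proteases, 8 were measured and 7 tested, and their median difference between both fractions together and controls was 0.096. Ptprb, the endothelial phosphatase that dephosphorylates Tek, averaged 4.19 ± 0.19 in GFP-positive cells, 4.36 ± 0.19 in GFP-negative cells and 4.18 ± 0.47 in controls. The integrin genes Itga5 and Itgb1, whose products can join Tek at the cell surface, differed by 0.100 ± 0.40 and -0.14 ± 0.35 between both fractions together and controls, while the 2 other tested Itgb1 probe sets differed by 0.43 and 0.44. Adam17, a protease that sheds membrane proteins, stood at 8.23, 8.19 and 7.77 on the GFP-positive arrays, at 7.34, 6.90 and 6.89 on the GFP-negative arrays, and at 8.26, 8.07 and 8.03 on the controls. GFP-negative cells were thus low on this probe set, with a difference of -1.08 ± 0.27 from controls (limma adjusted p = 0.709, unadjusted p = 0.00319), but the 2 other Adam17 probe sets differed by 0.45 and 0.38 in the other direction.

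Of 22 genes that carry the signal inside the cell, 19 were measured and 16 tested, 11 lower and 5 higher by point estimate in both fractions together than in controls, with a median of -0.14. Dok2, an adaptor that binds activated Tek, differed by -0.32 ± 0.28. Foxo1, the transcription factor that AKT restrains and that raises Angpt2 in endothelial cells, differed by 0.029 ± 0.56 on its brightest probe set and by -0.41, -0.36 and -0.39 on the 3 others. In all 16 tested genes the unadjusted p was at least 0.0984.

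Of 10 ETS, GATA and SCL-complex factors linked to control of Tie genes, all 10 were tested, 8 lower and 2 higher, with a median of -0.41. Lmo2, a bridging protein of the SCL complex, stood at 10.35, 10.22 and 10.70 on the GFP-positive arrays, at 10.63, 10.54 and 10.78 on the GFP-negative arrays, and at 11.21, 11.22 and 11.48 on the controls. All 6 dnMPL arrays were below all controls, with a difference of -0.77 ± 0.23 (limma adjusted p = 0.592, unadjusted p = 0.00785). Erg, an ETS factor of stem and endothelial cells, stood at 10.12, 8.79 and 10.11 on the GFP-positive arrays, at 9.62, 10.13 and 9.71 on the GFP-negative arrays, and at 10.61, 10.55 and 10.93 on the controls. The dnMPL arrays again lay below all controls. This held for 2 of the 10 factors and the reverse for 0, against 1.85% and 1.51% of all tested probe sets. The 2 Erg probe sets differed by -0.95 ± 0.34 and -0.79 ± 0.30 (limma adjusted p = 0.687 and 0.703). GFP-positive 2 was the lowest Erg array and control 3 the highest, and without both the differences were -0.61 ± 0.25 and -0.47 ± 0.29. Lmo2 differed by -0.63 ± 0.23 without them.

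**Figure D5:**
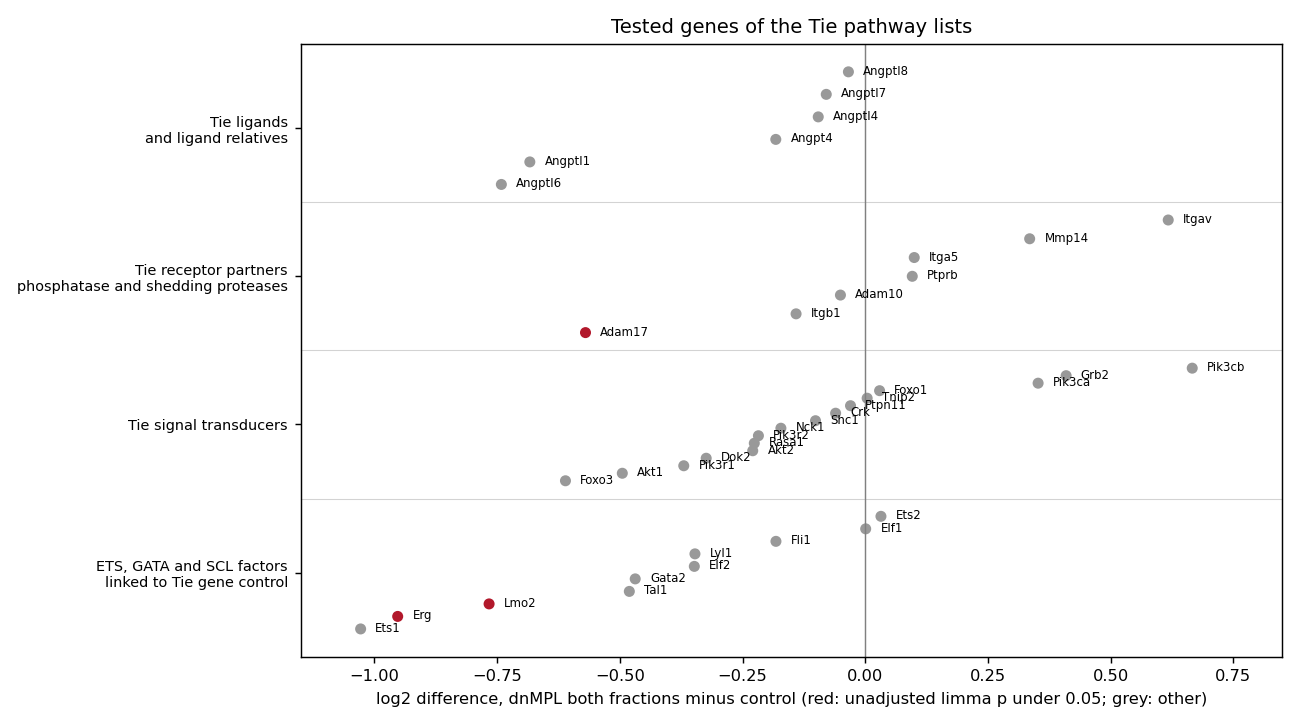
Log2 differences between both dnMPL fractions together and control for the tested genes of the 4 pathway lists, 1 point per gene from its brightest probe set. Lmo2, Erg and Adam17 (red) had an unadjusted limma p under 0.05, and 0 genes passed adjustment. By list these were 0 of 6 ligands, 1 of 7 partners, 0 of 16 transducers and 2 of 10 factors, all lower. Of all tested probe sets, 3.1% were lower and 3.55% higher at that threshold.

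Since Tek and Tie1 are also genes of endothelial cells, and Angpt1 of stromal cells and megakaryocytes, markers of these cells were read beside them. Of 10 endothelial markers largely absent from stem cells, 3 were above the filter. The summed level of all 10 was 37.17 to 41.96 in GFP-positive cells, 37.52 to 40.36 in GFP-negative cells and 35.69 to 40.19 in controls. The 3 tested ones were higher by point estimate in both fractions together than in controls. Of these, Mmrn2 averaged 3.74 in GFP-negative cells and 4.02 in controls, both under the filter level. It was tested through its GFP-positive level of 4.41, so its place among the 3 supports nothing. Flt4 differed by 0.54 ± 0.23, Mmrn2 by 0.054 ± 0.37 and Ptprb by 0.096 ± 0.27 (limma adjusted p = 0.73, 0.993 and 0.981). On Flt4 all dnMPL arrays, at 5.11 to 5.41, were above all controls, at 4.43 to 4.95. This held for 1.51% of all tested probe sets. Cdh5, Kdr and Flt1, which define endothelium, were below the filter, and Kdr averaged 3.91 ± 0.24 in GFP-positive cells, 4.00 ± 0.02 in GFP-negative cells and 3.98 ± 0.17 in controls. The summed level of 12 stromal markers was 50.48 to 61.97 in GFP-positive cells, 48.48 to 58.23 in GFP-negative cells and 49.38 to 55.70 in controls. Of its 7 tested members 2 were lower and 5 higher by point estimate in both fractions together than in controls. Bgn differed by -1.87 ± 0.33 and Pdgfrb by -0.90 ± 0.32, against Cxcl12 at 1.71 ± 0.78 and Vcam1 at 0.91 ± 0.38 (limma adjusted p = 0.274, 0.687, 0.76 and 0.724). Of the 5 higher ones, Cxcl12, Col1a1 and Col1a2 averaged under the filter level in controls, at 3.62, 4.00 and 3.75. They were tested through their dnMPL levels, so their place among the 5 supports nothing. The summed level of 8 megakaryocyte and platelet markers was 32.99 to 35.37 in GFP-positive cells, 35.33 to 38.93 in GFP-negative cells and 36.41 to 40.15 in controls. The GFP-positive sums thus lay below all controls. Of its 4 tested members 3 were lower and 1 higher by point estimate in both fractions together. Itga2b differed by -0.76 ± 0.25 and Pf4 by -1.44 ± 0.68 (limma adjusted p = 0.655 and 0.767). The part of such cells in the Angpt1 difference was not tested.

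For 4 other marker lists the summed levels of both dnMPL fractions did not overlap those of controls. Over 9 endothelial genes that stem cells also express it was 58.73 to 59.66 in GFP-positive cells, 56.62 to 59.37 in GFP-negative cells and 62.70 to 64.78 in controls. Of its 8 tested members 5 were lower and 3 higher by point estimate. Procr, which the stem cell list also holds, differed by -1.95 ± 0.33, Emcn by -1.93 ± 0.54 and Myct1 by -1.60 ± 0.61, whereas Pecam1 differed by 1.18 ± 0.30 (limma adjusted p = 0.241, 0.572, 0.707 and 0.481). The summed level of 11 LSK gate and stem cell genes was 59.84 to 64.51 in GFP-positive cells, 64.86 to 65.80 in GFP-negative cells and 73.37 to 76.52 in controls. That of 10 granulocyte genes was 107.43 to 116.58 in GFP-positive cells, 99.46 to 112.47 in GFP-negative cells and 71.82 to 95.91 in controls. That of 7 erythroid genes was 49.26 to 50.41 in GFP-positive cells, 47.21 to 49.19 in GFP-negative cells and 36.53 to 37.68 in controls. The same dnMPL arrays had less Angpt1, lower sums of the stem cell list and of the shared endothelial list, and higher sums of the granulocyte and erythroid lists, whose part in the Angpt1 difference was not tested.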

How the data were processed

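The deposited values are log2 RMA values from mouse Affymetrix arrays, per the submitters' processing notes, which give no version. That method gives 1 summary per probe set after background correction and quantile normalization. Each of the 9 arrays was placed in its group by its title. The members and the gene lists were chosen with earlier results of these data known.

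Of 45037 probe sets that were not controls, 27022 had a mean over all arrays above the 40th percentile and entered 1 linear model of the 3 groups (lmFit and eBayes of limma 3.58.1 in R 4.3.3), and p-values adjusted by Benjamini-Hochberg were called under 0.05. The fit was tested on simulated data. With 3 arrays a group, exact permutation of 1 probe set could reach 0.1 at best and was not used. A list gene was represented by its brightest probe set. Genes named from lists were a fixed set (Ptprb, Dok2, Foxo1, Cdh5, Kdr, Flt1, Itgb1, Itga5, Adam17, Svep1) and, per pathway list, up to 4 with the smallest unadjusted p under 0.05 between both fractions and controls. Angpt4, the other named markers and the values of Erg and Lmo2 without 2 arrays were chosen once the data had been seen. Other settings tried were the filter, 1 row per gene, another scaling, the variance prior, array weights and leaving out arrays. Probe sets were named through the platform annotation, and 34741 of 34945 with 1 gene matched RefSeq by Entrez number. Promoter sequences are from RefSeq, build GRCm38.p6. Figures were drawn with matplotlib 3.10.9. Precision is limited by the number of arrays.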

Additional observations from a re-analysis of the deposited data

How the results depend on the processing

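Over 402 recomputed member values the sign was kept in 370 and turned in 32, and 0 probe sets or genes passed adjustment under any setting. Many of the 370 could not turn. Another filter, the brightest probe set per gene, another variance prior, fewer groups or a replicate block leave a difference unchanged by construction. The count therefore does not measure stability, for which the ranges below are given. Against controls Tek, Tie1 and both Angpt1 probe sets kept their sign throughout, with both fractions together at -2.76 to -1.70 for Tek, -1.72 to -0.83 for Tie1, and -1.23 to -0.76 and -1.36 to -1.12 for Angpt1 without single arrays. The sign turned for Angpt2 against controls and for differences between the fractions, Tek among them. Without single arrays, Angpt2 1459636_at ranged from -0.60 to 0.28 in GFP-positive cells against controls, from -0.38 to 0.35 in GFP-negative cells against controls, from -0.65 to 0.23 between the fractions and from -0.45 to 0.29 for both fractions together. Angpt2 1448831_at ranged from -0.53 to 0.11 in GFP-positive cells against controls and from -0.18 to 0.46 for both fractions together. Between GFP-positive and GFP-negative cells, Tek ranged from -0.17 to 1.95 and the 2 Angpt1 probe sets from -0.27 to 0.024 and from -0.18 to 0.32. With array weights, Angpt2 1459636_at was 0.56 in GFP-positive cells against controls, 0.40 between the fractions and 0.36 for both together, Angpt1 1439066_at was -0.18 between the fractions, and Angpt2 1448831_at had an unadjusted limma p of 0.0438 between them. The mean of its probe sets put Angpt2 at 0.060 for both fractions together. Without control 3 and GFP-positive 2, Angpt2 1459636_at was 0.59 in GFP-positive cells against controls, 0.23 between the fractions and 0.47 for both together, Angpt2 1448831_at was 0.0057 in GFP-positive cells against controls, and Tek was -0.17 between the fractions. The causes were not tested. The deviations of same-numbered arrays from their group means had correlations from -0.252 to 0.0905. For GFP-negative and GFP-positive arrays numbered 1, 2 and 3 they were 0.0905, -0.031 and -0.068. With 3 arrays a group, these values cannot show whether the fractions came from the same mice. With the replicate number as a block, differences were unchanged by construction, 0 probe sets passed, and Angpt1 in both fractions together had limma adjusted p = 0.675 and 0.648, Tek 0.813 and Tie1 0.827.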
